A study of Mus musculus with 20 samples.

Results

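The genes described here are 9 genes of the hepatic lipid droplet, the store of triglyceride in the liver cell: the lipase genes Pnpla2 and Pnpla3, the lipase inhibitor gene G0s2, the droplet protein genes Cidec, Cideb, Plin2 and Plin5, and the lipin genes Lpin1 and Lpin2. Their probe sets were found by gene symbol, and the brightest kept probe set stands for each gene. All 9 were found among the 18193 genes on the array and among the 12832 genes bright enough to be tested. They are represented by 15 probe sets, and 1 of these, 1428591_at for Pnpla2, stayed below the median of its array on all 20 arrays. The mice were C57BL/6 males of 8 to 12 weeks, and RNA from the whole liver of each was hybridised to an Affymetrix Mouse430_2 array. The control group held 5 mice that were not manipulated, and the minor trauma group 3 mice. The shock group held 4 mice taken after 1.5 h of hemorrhagic shock with severe trauma, and 2 further groups of 4 mice were given 1 h or 4.5 h of resuscitation after the same shock and trauma. The treated mice had anesthesia and surgery, which the control mice lacked, so anesthesia, surgery and shock cannot be told apart in a comparison with control. All shocked mice also had severe trauma, so hemorrhage and severe trauma cannot be told apart in any comparison. No shocked group was sampled later without resuscitation, so resuscitation and time since injury cannot be told apart. The kind and timing of the minor trauma, the feeding state and the hour of sampling are not stated in the labels. The design asks how the liver's transcripts change with the severity of injury and with time after it.

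A lipid droplet is a core of triglyceride under a phospholipid layer that carries proteins. Pnpla2 encodes adipose triglyceride lipase, which removes the first fatty acid from a triglyceride, and G0s2 encodes a small protein that binds this lipase and inhibits it. Perilipins coat the droplet: Plin2 is the main coat protein of liver droplets, and Plin5 is known for tethering droplets to mitochondria. Cidec favours the fusion of droplets into larger ones, and Cideb, made mainly in hepatocytes, takes part in loading very-low-density lipoprotein (VLDL) with lipid. The lipins turn phosphatidic acid into diacylglycerol in triglyceride synthesis, and lipin 1 also acts in the nucleus as a coactivator of fatty acid oxidation genes. In fasting, fatty acids from adipose tissue reach the liver, and several of these genes are known targets of the nuclear receptor PPAR alpha or of glucocorticoids.

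All levels below are log2 of the deposited intensity plus 6 after quantile normalization, on which an array's median lies at 4.60, and a difference of 1 is a 2-fold change of that quantity. Levels of different genes are not compared, since probe sets differ in brightness. Differences are given ± SE from limma with the p adjusted over all 12832 genes, and calls were made where this p was 0.05 or less. The deposited intensities were not scaled, with trimmed means from 64.93 to 166.6 per array. The array labelled control 5 correlated best with an array of the minor trauma group (minor trauma 2, r = 0.983 across genes), and minor trauma 3 reached only r = 0.95 with its best partner, so values without both are given beside the results on members that turn on either. Spiked poly-A RNA was present on 10 arrays, 2 in each group, and near background on the other 10, and values within each set of 10 are given beside the comparisons with control in which they end or add a call of a member. The log2 ratio of 3' to 5' actin probe sets lay between 0.72 and 0.90 over the group means, and was 0.79 ± 0.26 (SD, n = 5) in the controls. With 3 to 5 arrays a group, the number of arrays limits the precision. In whole liver, fewer cells of a type and less RNA per cell cannot be told apart.

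G0s2, the inhibitor of the lipase, had the lowest transcript level after resuscitation. Its level on control arrays 1 to 5 was 9.03, 9.09, 8.90, 9.98 and 10.01. On the minor trauma arrays it was 9.76, 9.90 and 8.36, within 1 SD of the control level on average. On the shock arrays it was 7.55, 7.27, 6.96 and 7.83, below every control and minor trauma array. It read 6.57, 5.73, 5.44 and 6.01 after 1 h of resuscitation and 5.81, 6.34, 6.28 and 6.19 after 4.5 h. These 8 arrays all lay below the lowest shock array, and the 1 h and 4.5 h groups overlapped.

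In the fit, G0s2 fell by 2.0 ± 0.30 in shock (4-fold, limma adjusted p = 0.000265). It fell by 3.47 ± 0.30 with 1 h of resuscitation (11.1-fold, adjusted p = 5.85e-08) and by 3.25 ± 0.30 with 4.5 h (9.5-fold, adjusted p = 3.67e-08). These 3 calls were kept in each of the 20 fits that left out 1 array, and G0s2 was lower on all 12 shocked arrays than on any control array. Within the 10 arrays without the spiked RNA the shock difference was -1.62 (adjusted p = 0.0803), while both resuscitation calls held in either set of 10. Against minor trauma the shock level was lower by 3.83-fold (log2 difference -1.94 ± 0.34, adjusted p = 0.00167). Minor trauma against control gave -0.06 ± 0.33 (adjusted p = 0.945), and its interval of 2 SE, -0.72 to 0.6, leaves room for a change of either sign.

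From shock to 1 h of resuscitation G0s2 fell further, by 1.47 ± 0.32 (2.76-fold, adjusted p = 0.0207). It was the only member called in that comparison. That call ended without shock 1 (adjusted p = 0.0637), shock 4 (0.103), 1 h array 2 (0.0804) or 1 h array 3 (0.1). From 1 h to 4.5 h the difference was 0.22 ± 0.32 (adjusted p = 0.647). Ordered by group mean, the level ran from control (9.40) and minor trauma (9.34), which did not differ beyond their spread, through shock (7.40) to 4.5 h (6.15) and 1 h (5.93), which again did not differ beyond theirs.

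**Figure D1:**
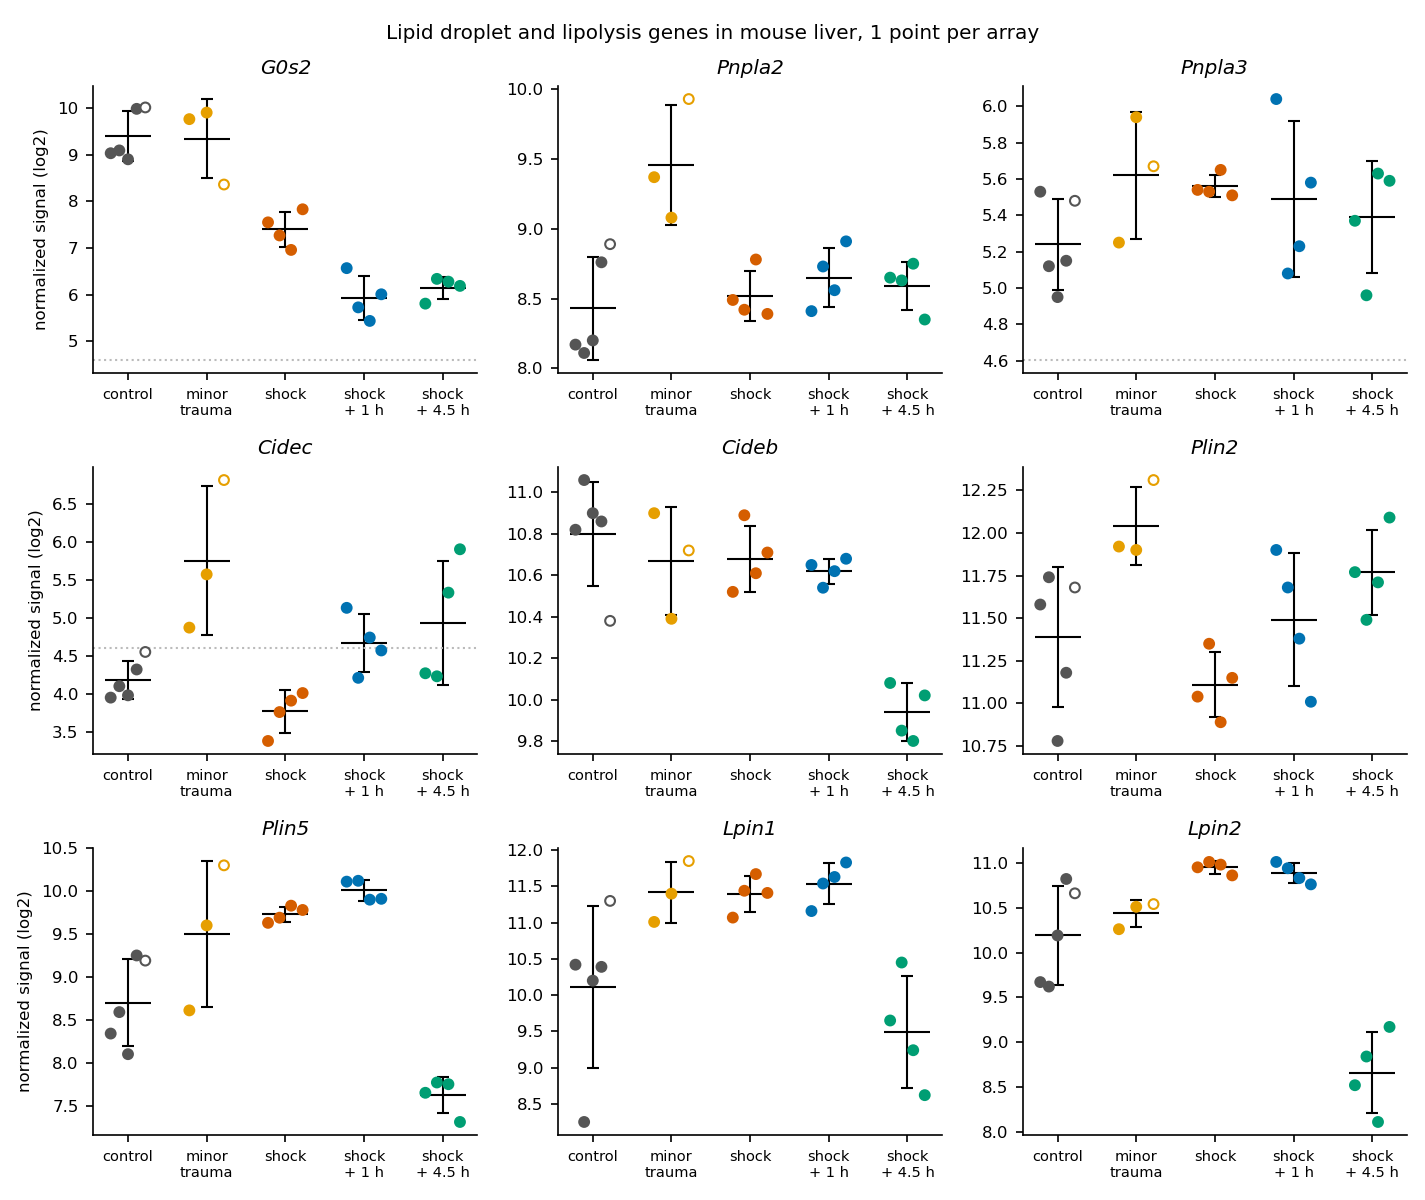
Level of each of the 9 genes (y axis, log2 of intensity + 6, quantile normalized) on each array of the 5 groups (x axis); points are arrays, bars the group mean ± SD, open circles are control 5 and minor trauma 3, and the dotted line, drawn for genes near it, is the array median. G0s2 is lower on all 12 shocked arrays than on any control array, and Plin5, Lpin1 and Lpin2 are lower in the 4.5 h group than in the 1 h group.

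Pnpla2, the lipase itself, stood apart in the minor trauma group and not in the shocked groups. It read 8.17, 8.11, 8.20, 8.76 and 8.89 on control arrays 1 to 5 and 9.37, 9.08 and 9.93 on the minor trauma arrays. Every minor trauma array was above every control array, and the level rose by 1.03 ± 0.20 (2.05-fold, adjusted p = 0.0151). This call ended without minor trauma 3, the highest array (0.80, adjusted p = 0.107), but held without that array and control 5 (0.91, adjusted p = 0.00447). Within the 10 arrays without spike it was 0.65 (adjusted p = 0.79).

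The 12 shocked arrays read 8.35 to 8.91 for Pnpla2, beside 8.11 to 8.89 in the controls. The differences from control were 0.09 ± 0.18 in shock, 0.23 ± 0.18 at 1 h and 0.16 ± 0.18 at 4.5 h (adjusted p = 0.89, 0.529 and 0.51). Their intervals of 2 SE reached no higher than 0.59 and no lower than -0.27. Shock was lower than minor trauma by 1.92-fold (log2 difference -0.94 ± 0.20, adjusted p = 0.00645), with no overlap of the arrays, and by -0.71 (adjusted p = 0.0187) without control 5 and minor trauma 3. In the order of group means, minor trauma (9.46) came first, and 1 h (8.65), 4.5 h (8.59), shock (8.52) and control (8.43) followed within their spread.

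The difference between the log2 levels of the inhibitor and the lipase was also computed for each array. It is a change within arrays, not a ratio of molecules or of proteins. G0s2 minus Pnpla2 was 0.86, 0.98, 0.70, 1.21 and 1.11 on the control arrays, and 0.39, 0.82 and -1.57 on the minor trauma arrays. In shock it was -0.94, -1.15, -1.82 and -0.56. It was -1.84, -3.0, -3.13 and -2.9 at 1 h, and -2.84, -2.29, -2.47 and -2.16 at 4.5 h. All 12 shocked arrays were below all 5 control arrays, with minor trauma 3 among the shocked values. Where 0 falls depends on the brightness of the probe sets, so only shifts between groups are read.

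Against control the difference was lower by -2.09 ± 0.28 in shock, -3.69 ± 0.31 at 1 h and -3.41 ± 0.17 at 4.5 h. Each had a two-sided exact permutation p = 0.0159, the smallest that 4 against 5 arrays allow, and an adjusted p = 0.037 over the 7 comparisons. From shock to 1 h the change was -1.6 ± 0.4 (exact permutation p = 0.0286, the smallest for 4 against 4, adjusted p = 0.05). Minor trauma against control gave -1.09 ± 0.74 (exact permutation p = 0.0714, adjusted p = 0.1), a value carried by minor trauma 3. Without that array it was -0.37 (exact permutation p = 0.19), and without it and control 5 it was -0.34 (exact permutation p = 0.267). Shock against minor trauma gave -1.0 ± 0.78 (exact permutation p = 0.229, adjusted p = 0.267), and -1.72 (exact permutation p = 0.133) without minor trauma 3. From 1 h to 4.5 h it was 0.28 ± 0.33 (exact permutation p = 0.429, adjusted p = 0.429).

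**Figure D2:**
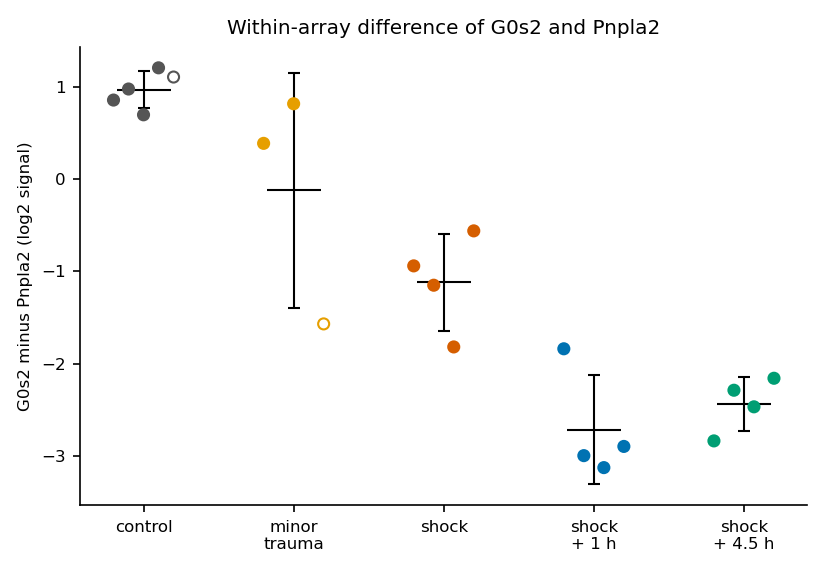
Level of G0s2 minus level of Pnpla2 on the same array (y axis, log2 units) for the arrays of the 5 groups (x axis); points are arrays, bars the group mean ± SD, and open circles are control 5 and minor trauma 3. All 5 control arrays lie between 0.70 and 1.21 and all 12 shocked arrays lie below them.

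Pnpla3, a lipase of the same family that sits on droplets and is known for its part in fatty liver disease, was dim and did not pass the test anywhere. Its level lay between 4.95 and 6.04 over all 20 arrays, just above the array median, and the groups overlapped in each of the 7 comparisons. Differences from control ran from 0.14 ± 0.20 at 4.5 h to 0.38 ± 0.22 in minor trauma, and the widest interval of 2 SE, that of minor trauma, was -0.06 to 0.81. The F test over the 5 groups gave an adjusted p = 0.499 for Pnpla3. It was the only member not called by that test: the other 8 of 9 were, against 45.4% of all genes tested.

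Plin5, the perilipin that tethers droplets to mitochondria, was higher in shock and at 1 h and then lower than control at 4.5 h. On control arrays 1 to 5 it read 8.34, 8.59, 8.10, 9.25 and 9.19. On the minor trauma arrays it read 8.61, 9.60 and 10.30, overlapping the controls. The shock arrays read 9.63, 9.69, 9.83 and 9.78 and the 1 h arrays 10.11, 10.12, 9.90 and 9.91, all above the highest control. The 4.5 h arrays read 7.65, 7.77, 7.75 and 7.31, all below the lowest control.

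Plin5 rose by 1.04 ± 0.25 in shock (2.05-fold, adjusted p = 0.0226) and by 1.31 ± 0.25 at 1 h (2.48-fold, adjusted p = 0.00149). At 4.5 h it fell by 1.08 ± 0.25 below control (2.11-fold, adjusted p = 0.00174). From 1 h to 4.5 h it fell by 2.39 ± 0.27 (5.23-fold, adjusted p = 8.11e-07). The shock call ended when any 1 of control 1, 2 or 3 or shock 2, 3 or 4 was left out, with adjusted p between 0.0504 and 0.0782, and it was 1.16 (adjusted p = 0.00142) without control 5 and minor trauma 3. Within the 10 spiked arrays the differences were 0.84 in shock, 1.10 at 1 h and -1.22 at 4.5 h (adjusted p = 0.614, 0.255 and 0.0759), so the directions stayed and the calls did not. Within the other 10 the shock difference was 1.15 (adjusted p = 0.208). With the values as deposited the shock difference was 1.07 (adjusted p = 0.0626). In minor trauma Plin5 gave 0.81 ± 0.27 (adjusted p = 0.0959). That difference was called without control 5 (0.93, adjusted p = 0.0381) and without minor trauma 1 (1.26, adjusted p = 0.0196). Without control 5 and minor trauma 3 it was 0.53 (adjusted p = 0.245). The second Plin5 probe set, 1424937_at, gave 1.09 in shock, 1.44 at 1 h and -0.96 at 4.5 h (adjusted p = 0.0089, 0.000262 and 0.00285).

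Lpin2 encodes a lipin that is abundant in liver, and it was higher than control at 1 h and lower than control at 4.5 h. Control arrays 1 to 5 read 9.67, 9.62, 10.19, 10.82 and 10.66 and the minor trauma arrays 10.26, 10.51 and 10.54. The shock arrays read 10.95, 11.01, 10.98 and 10.86, all above every control, and the 1 h arrays 11.01, 10.94, 10.83 and 10.76. The 4.5 h arrays read 8.52, 8.84, 8.11 and 9.17, below every other array. The SD was 0.07 in shock and 0.11 at 1 h, against 0.45 at 4.5 h and 0.55 in the controls.

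At 4.5 h Lpin2 fell by 1.53 ± 0.21 against control (2.89-fold, adjusted p = 8.1e-06) and by 2.23 ± 0.22 against 1 h (4.68-fold, adjusted p = 2.12e-07). At 1 h it rose by 0.69 ± 0.21 (1.62-fold, adjusted p = 0.0422), with overlap: the lowest 1 h array was below control 4. This last call ended in 11 of the 20 fits without 1 array, with adjusted p between 0.0507 and 0.113. It also ended with the spiked set as a block (0.69, adjusted p = 0.0528), and without control 5 and minor trauma 3 it was 0.81 (adjusted p = 0.0144). In shock the difference was 0.76 ± 0.21 (adjusted p = 0.0577), and without those 2 arrays 0.88 (adjusted p = 0.0202). In minor trauma it was 0.24 (adjusted p = 0.598). Within the spiked and the other arrays the 1 h difference was 0.67 and 0.71 (adjusted p = 0.352 and 0.348). With the values as deposited and no scaling it was 0.73 (adjusted p = 0.196).

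Lpin1, whose product is both an enzyme and a nuclear coactivator, varied most among the controls. Control arrays 1 to 5 read 10.42, 8.25, 10.20, 10.39 and 11.30, with control 2 far below the others and control 5 above them. The minor trauma arrays read 11.01, 11.40 and 11.85 and the shock arrays 11.07, 11.44, 11.67 and 11.41. The 1 h arrays read 11.16, 11.54, 11.63 and 11.83 and the 4.5 h arrays 9.65, 10.45, 9.24 and 8.62. The 4.5 h arrays lay below all 11 arrays of the minor trauma, shock and 1 h groups and within the control range.

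Lpin1 rose by 1.43 ± 0.41 at 1 h (2.69-fold, adjusted p = 0.0284), although the lowest 1 h array was below control 5. That call ended without 1 h array 2, 3 or 4 (adjusted p = 0.063, 0.0738 and 0.0823). Without control 5 and minor trauma 3 it was 1.73 (adjusted p = 0.00451). Within the spiked arrays it was 2.29 (adjusted p = 0.0569) and within the others 0.84 (adjusted p = 0.261). From 1 h to 4.5 h it fell by 2.05 ± 0.43 (4.13-fold, adjusted p = 0.000948), a call kept in all 20 fits without 1 array, and -1.55 (adjusted p = 0.106) within the 10 spiked arrays. Minor trauma gave 1.31 ± 0.45 (adjusted p = 0.0972) and shock 1.28 ± 0.41 (adjusted p = 0.103). Without control 5 alone both were called, at adjusted p = 0.0188 and 0.0232. Without control 5 and minor trauma 3 minor trauma was not called (1.39, adjusted p = 0.0932) and shock was (1.58, adjusted p = 0.0195). At 4.5 h the difference from control was -0.62 ± 0.41 (adjusted p = 0.252), and without control 2 it was -1.08 (adjusted p = 0.00624). The sign differed between the sets: -1.69 (adjusted p = 0.00571) in the 10 arrays without spike and 0.74 (adjusted p = 0.397) in the spiked arrays.

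The other probe sets of the lipins mostly followed the brightest one in direction, with 1 exception, while the sizes of the changes differed. For Lpin1, 1418288_at gave 1.26 at 1 h and -1.84 from 1 h to 4.5 h (adjusted p = 0.0402 and 0.00138). For Lpin2, 1452837_at gave 0.95 in shock, 0.92 at 1 h and -1.60 at 4.5 h, and 1460290_at gave 0.93 at 1 h and -0.55 at 4.5 h, all called. The probe set 1446316_at of Lpin2 went a different way after shock. It read 4.84, 5.59, 6.38, 6.23 and 6.05 on the controls and 8.36, 8.90, 7.73 and 8.59 in shock, where it rose by 2.57 ± 0.36 (adjusted p = 0.000111). At 1 h it read 8.00, 5.92, 6.32 and 5.92, so it fell by 1.86 from shock to 1 h (adjusted p = 0.0123), where the brightest Lpin2 probe set stayed within its spread. Against control 1446316_at gave 0.72 at 1 h and -0.67 at 4.5 h (adjusted p = 0.263 and 0.162) and was not called, beside -1.53 at 4.5 h for the brightest. Where on the Lpin2 transcript this probe set lies was not analysed here.

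**Figure D3:**
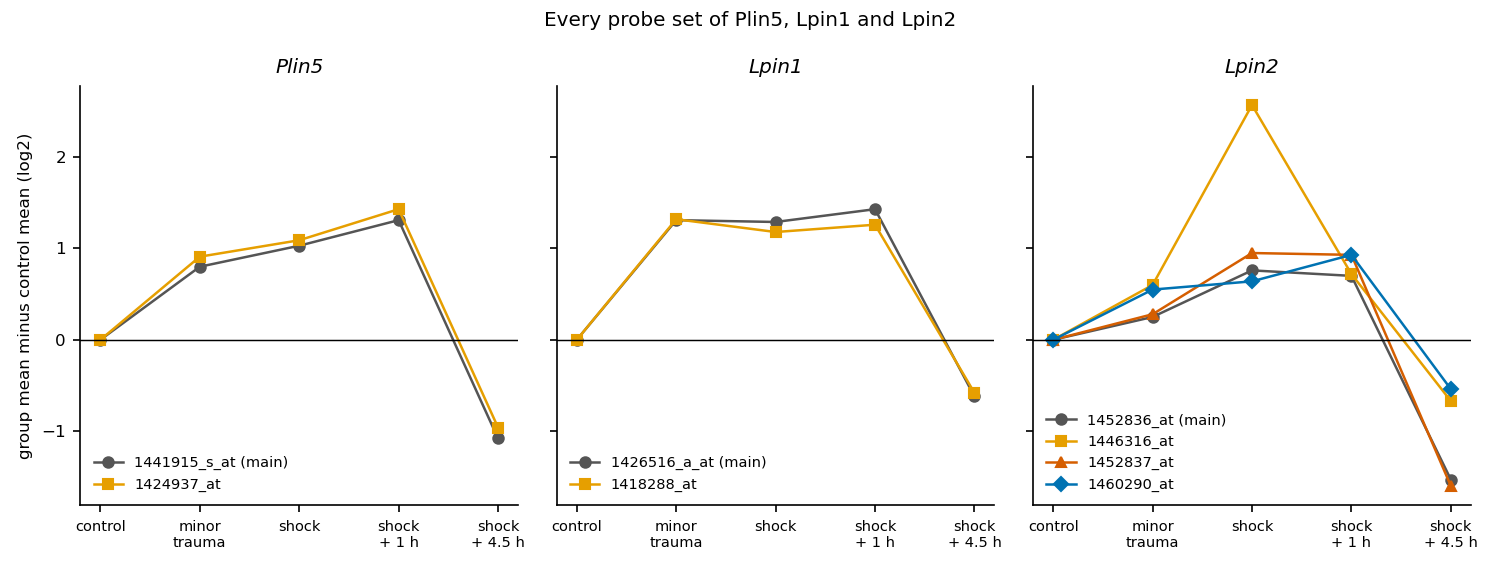
Group mean minus control mean (y axis, log2 units) for every probe set of Plin5, Lpin1 and Lpin2 over the 5 groups (x axis), 1 line per probe set. The probe sets of Plin5 run together, while 1446316_at of Lpin2 lies 2.57 above control in shock and 0.72 above it at 1 h.

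G0s2 fell from shock on, while Plin5, Lpin1 and Lpin2 are the members called higher at 1 h that fell from 1 h to 4.5 h. The rise of these last was not particular to 1 h: it was 1.04, 1.28 and 0.76 in shock, beside 1.31, 1.43 and 0.69. The 1 h calls of Lpin1 and Lpin2 ended in several fits given above. The sequences before the start sites of these genes are shown so that the 2 patterns can be read beside their promoters. Each is the 250 bases 5′ of the RefSeq start on build GRCm38.p6, read 5′ to 3′ on the gene's strand. G0s2 lies at chr1:193273189-193273438 (minus strand), Plin5 at chr17:56117549-56117798 (minus strand), Lpin1 at chr12:16610967-16611216 (minus strand) and Lpin2 at chr17:71183282-71183531 (plus strand). Capitals mark a match on either strand to any of 5 short motifs. The first is AGGTCA, the half-site of nuclear receptors such as PPAR alpha. Another is AGAACA, known as the half-site of the glucocorticoid receptor. The core bound by the factor CREB is TGACG. The E-box, bound by basic helix-loop-helix factors, is CACGTG. The TATA box was searched as TATAAA.
G0s2: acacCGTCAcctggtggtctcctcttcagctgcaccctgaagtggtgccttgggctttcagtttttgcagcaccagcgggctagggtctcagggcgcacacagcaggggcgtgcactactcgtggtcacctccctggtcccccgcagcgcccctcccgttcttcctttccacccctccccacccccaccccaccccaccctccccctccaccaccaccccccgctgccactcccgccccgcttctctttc
Plin5: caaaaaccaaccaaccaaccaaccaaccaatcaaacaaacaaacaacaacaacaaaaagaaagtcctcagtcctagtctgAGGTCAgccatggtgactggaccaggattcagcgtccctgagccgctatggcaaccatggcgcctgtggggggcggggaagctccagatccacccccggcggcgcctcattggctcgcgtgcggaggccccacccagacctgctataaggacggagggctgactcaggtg
Lpin1: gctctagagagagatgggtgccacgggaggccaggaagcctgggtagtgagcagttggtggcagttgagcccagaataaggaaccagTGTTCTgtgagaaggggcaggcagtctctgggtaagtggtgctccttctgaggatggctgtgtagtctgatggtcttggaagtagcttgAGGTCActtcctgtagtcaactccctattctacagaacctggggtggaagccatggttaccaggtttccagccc
Lpin2: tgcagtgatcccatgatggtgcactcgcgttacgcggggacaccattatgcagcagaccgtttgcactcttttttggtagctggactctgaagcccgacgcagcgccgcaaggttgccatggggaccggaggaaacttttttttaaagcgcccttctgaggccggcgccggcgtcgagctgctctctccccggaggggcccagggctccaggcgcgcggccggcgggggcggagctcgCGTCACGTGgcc

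In these windows G0s2 has the TGACG core, Plin5 an AGGTCA half-site, Lpin1 both an AGGTCA and an AGAACA half-site, and Lpin2 a TGACG core that overlaps an E-box. All 9 members were matched to a promoter, and the search covered the 250 bases before to 50 after each start. Plin5 and Cidec have 2 starts and Lpin2 has 3, which gives 13 windows, and the first start is shown. AGGTCA was found in 4 of 13 windows (Lpin1, Plin2 and both of Plin5) and in 16.3% of all windows of this length. AGAACA was found in 3 of 13 (Cideb, Lpin1 and the third of Lpin2, not shown) against 19.0%. TGACG was found in 3 of 13 (G0s2, Lpin2 and Pnpla3) against 20.8%. The full palindrome TGACGTCA, which holds the TGACG core on both strands, was found in 1 of 13 (Pnpla3) against 1.79%. CACGTG was found in 2 of 13 (Lpin2 and Plin2) against 7.15%, and TATAAA in 1 of 13 (Cideb) against 13.6%. With 13 windows these counts are read as descriptions only. The sterol element TCACNCCAC (1.24% of windows), the AGGTCANAGGTCA repeat (0.0396%) and the full glucocorticoid element (0.00913%) were found for no member. These are matches of letters in a short window, and binding was not measured.

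Plin2, the main droplet coat protein of the liver, had its highest group mean in minor trauma and its lowest in shock. Control arrays read 11.58, 11.74, 10.78, 11.18 and 11.68, and the minor trauma arrays 11.92, 11.90 and 12.31, above every control. The difference was 0.65 ± 0.21 (adjusted p = 0.0783) and was not called, while with the values as deposited it was 1.01 (adjusted p = 0.0442). It was called without control 5 (adjusted p = 0.0356) and was 0.59 (adjusted p = 0.161) without control 5 and minor trauma 3. The shock arrays read 11.04, 11.35, 10.89 and 11.15 and the 1 h arrays 11.90, 11.68, 11.38 and 11.01. Shock against control gave -0.28 ± 0.19 (adjusted p = 0.55), with overlap of the arrays. Shock was lower than minor trauma by 1.91-fold (log2 difference -0.93 ± 0.21, adjusted p = 0.00887), a call that ended without minor trauma 3 (adjusted p = 0.0555) and was -0.80 (adjusted p = 0.0413) without control 5 and minor trauma 3. The 4.5 h arrays read 11.77, 11.49, 11.71 and 12.09, and against control they gave 0.37 ± 0.19 (adjusted p = 0.126).

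Cidec, the droplet fusion gene, was dim: it lay below the array median on all control and shock arrays, above it on all minor trauma arrays, and on either side of it after resuscitation. It read 3.95, 4.10, 3.98, 4.32 and 4.55 on the controls, below the array median on all 5, and 4.87, 5.57 and 6.81 on the minor trauma arrays, above it on all 3. Its group mean in minor trauma was therefore at least 2.22-fold higher (log2 difference 1.57 ± 0.39, adjusted p = 0.0309), with no overlap. That bound carries no sampling error, and the interval of 2 SE of the log2 difference was 0.8 to 2.34. The call ended without minor trauma 3 (1.04, adjusted p = 0.23), without control 1, 2 or 3 (0.0724, 0.074 and 0.0658), and without control 5 and minor trauma 3 together (1.13, adjusted p = 0.106). Within the spiked arrays it was 1.58 (adjusted p = 0.161) and within the others 1.47 (adjusted p = 0.79). In shock Cidec was below the median on all 4 arrays, at 3.38, 3.76, 3.91 and 4.01, so its group mean was at least 2.22-fold lower than in minor trauma (adjusted p = 0.00415). Without control 5 and minor trauma 3 the log2 difference was -1.45 (adjusted p = 0.0304). Its levels of 5.13, 4.21, 4.74 and 4.57 at 1 h and 4.27, 4.23, 5.33 and 5.90 at 4.5 h passed the median on 2 arrays of each group. The 4.5 h difference from control was 0.75 ± 0.35 (adjusted p = 0.0997). It was called without 4.5 h array 1 or 2 (0.98 and 0.99, adjusted p = 0.0475 and 0.045) and without control 5 and minor trauma 3 (0.84, adjusted p = 0.0425). It was 1.52 (adjusted p = 0.0158) within the 10 arrays without spike and 0.04 (adjusted p = 0.969) within the 10 spiked arrays.

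Cideb, the hepatocyte gene of the family, stayed within the control range until 1 h and fell at 4.5 h. Control arrays read 10.82, 11.06, 10.90, 10.86 and 10.38 and the minor trauma arrays 10.90, 10.39 and 10.72. The shock arrays read 10.52, 10.89, 10.61 and 10.71, and the 1 h arrays 10.65, 10.54, 10.62 and 10.68. The 4.5 h arrays read 10.08, 9.85, 9.80 and 10.02, below every other array. Cideb fell at 4.5 h by 0.87 ± 0.12 against control (1.82-fold, adjusted p = 9.45e-06) and by 0.69 ± 0.13 against 1 h (1.61-fold, adjusted p = 0.000335), and both calls were kept in all 20 fits without 1 array. Differences from control in the other 3 groups were between -0.18 and -0.12 and were not called.

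Counted by comparison, the share of members called is read against the share of all genes called. In minor trauma 2 of 9 were called, both higher (Pnpla2 and Cidec), against 3.44% of all genes, 2.07% higher and 1.37% lower. This count fell to 0 without minor trauma 3 and rose to 5 without control 5, when Plin2, Plin5 and Lpin1 were added. It was 1 without control 1, 2 or 3, and 1 without control 5 and minor trauma 3 together. In shock 2 of 9 were called, Plin5 higher and G0s2 lower, against 3.11% of all genes, 2.03% higher and 1.08% lower. That count was 1 without control 1, 2 or 3 or shock 2, 3 or 4, and 4 without control 5, when Lpin1 and Lpin2 were added. At 1 h 4 of 9 were called, with Plin5, Lpin1 and Lpin2 higher and G0s2 lower, against 9.91% of all genes, 4.61% higher and 5.31% lower. It was 2 without 1 h array 2, 3 or 4. At 4.5 h 4 of 9 were called, all lower (G0s2, Cideb, Plin5 and Lpin2), against 38.9% of all genes, 15.1% higher and 23.8% lower, so the share of members was near that of all genes.

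Between treated groups, 4 of 9 were lower in shock than in minor trauma (G0s2, Pnpla2, Cidec and Plin2), against 9.55% of all genes, 4.18% higher and 5.38% lower. From shock to 1 h 1 of 9 was called, G0s2 lower, against 1.25% of all genes, 0.873% higher and 0.374% lower. That count was 0 without shock 1 or 4 or 1 h array 2 or 3. Within the 10 arrays of either spike set, with 1 to 3 arrays a group, no member was called in these 2 comparisons. From 1 h to 4.5 h 4 of 9 were lower (Cideb, Plin5, Lpin1 and Lpin2), against 33.1% of all genes, 14.9% higher and 18.2% lower. The 4 comparisons with control share the control arrays, so their counts are not independent of each other.

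**Figure D4:**
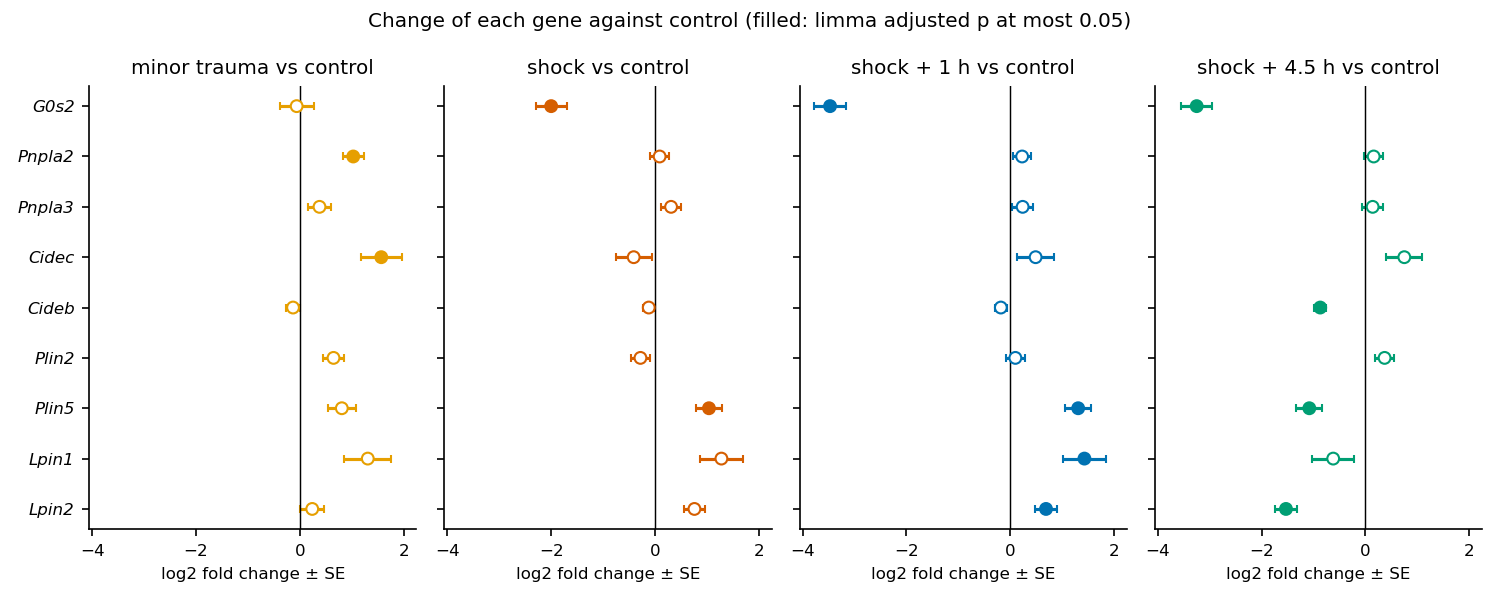
Log2 fold change (x axis, with bars of 1 SE) of each of the 9 genes (y axis) in the 4 treated groups against control, 1 panel per group; filled points passed the limma test at an adjusted p of at most 0.05. G0s2 lies at -2.0, -3.47 and -3.25 in shock, 1 h and 4.5 h, and Plin5, Lpin1 and Lpin2 move from above 0 at 1 h to below 0 at 4.5 h.

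The genes whose level over the 20 arrays was most like each member's are given by Pearson's r as a description, since all arrays share the same 5 groups. For G0s2 they were Inhbe (0.94), which encodes an activin subunit made in liver, Ublcp1 (0.93) and Anks4b (0.89). For Plin5 they were Dnmbp (0.95), Ppp1r2 (0.91) and Prrg3 (0.90). For Lpin2 they were Gpihbp1 (0.94), which anchors lipoprotein lipase on endothelium, G6pc (0.93), the last enzyme of glucose release, and Fhl1 (0.92). For Lpin1 they were Atp10d (0.88), Tpd52l1 (0.86) and Atp1b1 (0.86). For Cideb they were Sec14l2 (0.96), Rab17 (0.95) and Mettl7b (0.95). For Pnpla2 they were Bag5 (0.92), Tbrg4 (0.89) and St3gal5 (0.88), for Cidec Galnt11 (0.82), Wdr36 (0.81) and Slc22a5 (0.81), and for Plin2 Fbf1 (0.85), Slc23a2 (0.79) and Ddx49 (0.77). Pnpla3 had the weakest partners, C1qtnf6 (0.69), Ces2e (0.64) and Vps37b (0.63).

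Other genes of the pathway were followed in 5 lists written from general knowledge. Earlier results of these data were known when the lists were written, so their counts are read as descriptions. The list of lipases and lipolysis cofactors had 17 of 18 genes tested. At 4.5 h 14 of these 17 fell and 1 rose, against 23.8% and 15.1% of all genes, and the list's median difference was -0.51 against -0.09 for all genes. From 1 h to 4.5 h 11 of 17 fell and none rose, against 18.2% and 14.9% of all genes. Lipe, hormone-sensitive lipase, which follows Pnpla2 in lipolysis, fell by 1.27 at 4.5 h (2.42-fold, adjusted p = 9.68e-05), and Mgll, the lipase of monoglycerides, by 0.90 (adjusted p = 0.000186), as did the carboxylesterase Ces1g by 0.90 (adjusted p = 0.000189). Without control 5 and minor trauma 3 the counts at 4.5 h were again 14 lower and 1 higher.

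The 1 gene of that list that rose was Hilpda, whose product, like that of G0s2, inhibits adipose triglyceride lipase, and which is known as induced by hypoxia. It rose 6.86-fold in shock (log2 difference 2.78 ± 0.28, adjusted p = 1.05e-06), 6.8-fold at 1 h (adjusted p = 5.28e-07) and 4.37-fold at 4.5 h (adjusted p = 3.97e-06). In the 3 shocked groups the levels of these 2 inhibitors thus went opposite ways against the same controls. In minor trauma 2 of 17 were higher, against 2.07% of all genes. They were Mgll, by 0.76 (adjusted p = 0.0273), and Ddhd2, a triglyceride lipase of the phospholipase family, by 0.68 (adjusted p = 0.0425). At 1 h Ldah, a droplet hydrolase, fell by 0.48 and Pnpla6, a lysophospholipase, by 0.41 (adjusted p = 0.00728 and 0.0359).

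Of 15 tested genes of the droplet coat and droplet formation list, 6 fell and 1 rose at 4.5 h, 46.7% in all against 38.9% of all genes. Fitm2, which partitions triglyceride into droplets, fell by 1.14 (2.2-fold, adjusted p = 1.42e-05), Acsl3, an acyl-CoA synthetase of forming droplets, by 0.85, Mospd2, a tether of the endoplasmic reticulum, by 0.81 and Pcyt1a, which makes phosphatidylcholine for the droplet surface, by 0.66. Mospd2 was also lower in minor trauma, where it fell by 0.82 (adjusted p = 0.0439), but not without control 5 and minor trauma 3 (-0.43, adjusted p = 0.105). Plin4 rose by 1.73 ± 0.45 at 1 h (3.31-fold, adjusted p = 0.0156), with overlap of the arrays. No gene of the list was called in shock, 0 of 15, against 3.11% of all genes.

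Of 17 tested genes of triglyceride synthesis, 5 fell and 1 rose at 4.5 h, 35.3% in all against 38.9% of all genes. None was called in shock or at 1 h, where 3.11% and 9.91% of all genes were called. Agpat2, which makes phosphatidic acid, fell by 1.06 (adjusted p = 4.3e-05), Gpam, the mitochondrial acyltransferase of the first step, by 0.97 (adjusted p = 3.18e-05), and Agpat5 rose by 0.73 (adjusted p = 0.000439). Gpat2 was at least 1.11-fold lower, near background. Gpat3 was higher in minor trauma by 1.67 (3.19-fold, adjusted p = 0.0396), a call that ended without control 5 and minor trauma 3 (1.44, adjusted p = 0.0912). Of 15 tested genes of VLDL assembly and fatty acid uptake, none was called in shock or at 1 h, against 3.11% and 9.91% of all genes. At 4.5 h 8 of the 15 fell and none rose, against 23.8% and 15.1% of all genes. They included the fatty acid transporter Cd36, which fell by 0.89 (adjusted p = 0.00273), Mttp, which loads apolipoprotein B with lipid, by 0.74 (adjusted p = 4.75e-05), Tm6sf2, also of VLDL lipidation, by 0.71 (adjusted p = 0.00599), and Slc27a4, a fatty acid transport protein, by 0.71 (adjusted p = 0.00414). Acsl4 was lower in minor trauma, by 1.2 (adjusted p = 0.0469), and without control 5 and minor trauma 3 it was not called (-0.55, adjusted p = 0.187).

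**Figure D5:**
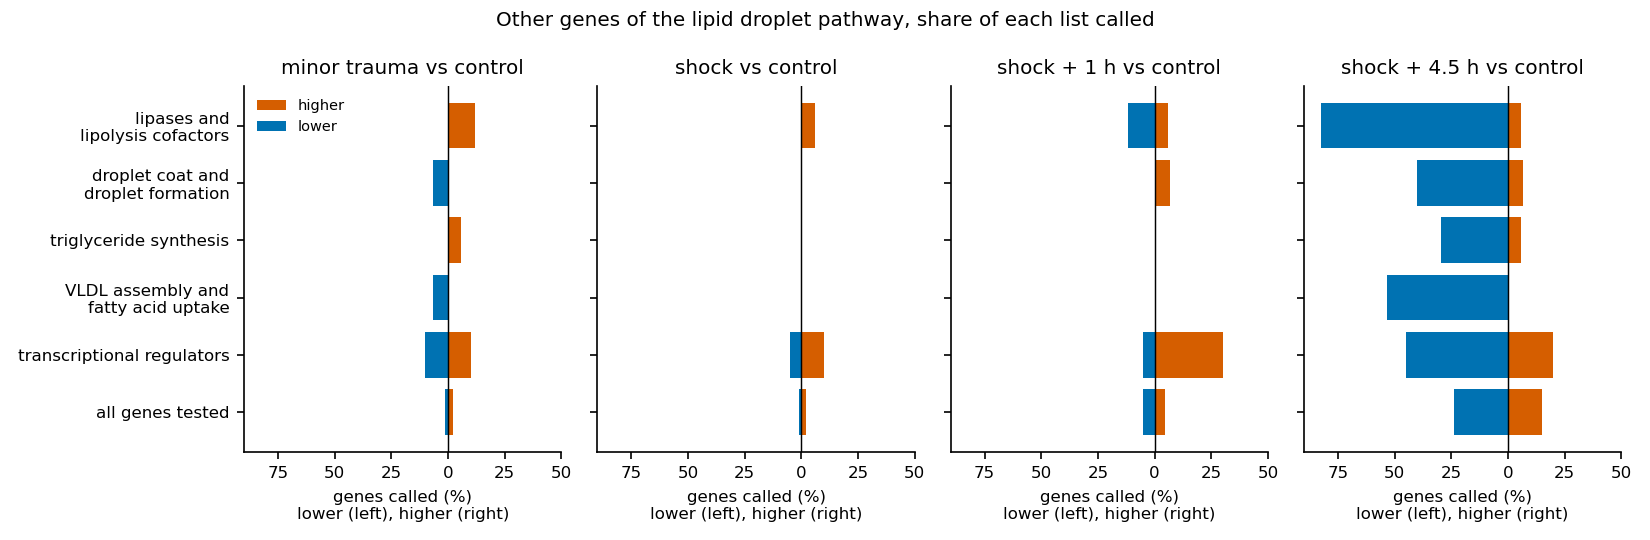
Share of the tested genes of each of 5 pathway lists that were called higher or lower (x axis, percent) in each comparison with control, with all 12832 genes in the bottom row. In the lipase list 14 of 17 genes were called lower at 4.5 h, against 23.8% of all genes.

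Of 20 tested transcriptional regulators of these genes, 6 rose and 1 fell at 1 h, against 4.61% and 5.31% of all genes. At 4.5 h 4 rose and 9 fell, against 15.1% and 23.8%. Without control 5 and minor trauma 3 the 1 h count was 9 higher and 4 lower. Ppargc1a, the coactivator of fasting metabolism, rose by 1.00 at 1 h (adjusted p = 0.0106) and fell by 1.45 at 4.5 h (adjusted p = 7.85e-05). Its relative Ppargc1b rose by 0.77 at 1 h (adjusted p = 0.0167) and fell by 2.47 at 4.5 h (5.55-fold, adjusted p = 5.86e-09). Srebf1, the regulator of fatty acid synthesis, rose by 1.59 in shock and 1.26 at 1 h (adjusted p = 0.00118 and 0.00425). At 4.5 h Srebf1 was lower than control by 0.96 (adjusted p = 0.008). The nuclear receptor gene Ppard rose by 1.03 at 1 h (adjusted p = 0.0042). Ppara, the receptor for which several members are targets, fell by 0.53 in shock (adjusted p = 0.0357). It also fell at 1 h and 4.5 h, by 0.67 and 0.7 (adjusted p = 0.00236 and 0.000346). Cebpb, a factor of acute stress and inflammation, rose in minor trauma, shock, 1 h and 4.5 h by 0.87, 1.14, 0.85 and 1.03. At 4.5 h Hif1a, the hypoxia-inducible factor, rose by 1.64 (3.12-fold) and Cebpa, which maintains hepatocyte genes, fell by 1.18. In minor trauma Nr3c1, the glucocorticoid receptor gene, fell by 1.04 (adjusted p = 0.0491), Ppargc1a fell by 1.02 (adjusted p = 0.0399), and Creb3l3, a hepatic factor of the fasting response, rose by 0.64 (adjusted p = 0.031). Of these 3, the call of Nr3c1 ended without control 5 and minor trauma 3 (-0.52, adjusted p = 0.071).

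The labelled tissue was checked against markers. All 7 hepatocyte markers on the array lay above the array median on all 20 arrays, with summed levels, on the linear normalized scale, of 50000 to 58600. Since adipocytes also express most of the members, adipocyte markers were read too: Adipoq, Lep, Cidea and Ucp1 were above the median on 0 of 20 arrays, while Fabp4 and Car3 were above it on all 20. Retn was above it on 2 arrays and Lipe on 18. Fabp4, which macrophages and endothelium also express, had group means of 7.77 (control), 8.06 (minor trauma), 8.51 (shock), 8.87 (1 h) and 10.34 (4.5 h). Neutrophil markers moved with the groups. Their summed levels were 114 to 412 in control, 294 to 584 in minor trauma, 535 to 2430 in shock, 2830 to 4320 at 1 h and 4270 to 4750 at 4.5 h. In the 3 shocked groups 6, 7 and 7 of 7 tested were higher, against 2.03%, 4.61% and 15.1% of all genes. A gene could pass the brightness filter through the groups where it is high. Cxcr2, Camp and Ltf, each above the median on 1 array, were not tested. Their group means were 3.09, 2.97 and 3.64 in control and 3.9, 4.02 and 3.5 at 4.5 h. Kupffer cell and macrophage markers summed to 3380 to 5670 in control and 1440 to 1960 at 4.5 h, where 8 of 9 were lower. The remaining 1, Marco, was higher, with group means of 6.3 in control and 7.66 at 4.5 h. Endothelial markers summed to 1430 to 1920 in control and 1180 to 1360 at 4.5 h, where 2 of 6 were higher and 3 lower. Of 7 stellate cell markers, 0 were higher and 2 lower at 4.5 h. At 4.5 h 1 of 7 hepatocyte markers was higher and 1 lower. In that comparison 15.1% of all genes tested were higher and 23.8% lower. The stellate cell and hepatocyte counts were near these shares. The part of these cell types in the changes of the members was not tested.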

How the data were processed

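Whole liver RNA of 20 mice was measured on 20 arrays, 1 array per mouse. The deposited values are linear intensity signals, which the authors made with MAS5 (version not stated) as the submitters' processing notes list it. Groups were taken from the sample labels. A value of 6 was added, log2 taken, and the arrays quantile normalized together. Probe sets had to exceed the median of their own array on 3 or more arrays, which left 27274 of 45101. Genes were named from the platform annotation: 34945 probe sets had 1 gene, 932 several and 9160 none, and 64 were controls. Only those with 1 gene were used, each gene standing on its brightest kept probe set.

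limma 3.58.1 (R 4.3.3, and data.table at 1.17.8) fitted 5 group means with an intensity trend and 7 contrasts, with Benjamini-Hochberg adjustment over 12832 genes. The script was tested on simulated data. A gene at or below the array median on all arrays of the lower group got a fold bound: the higher group's mean over the mean of, per lower array, the higher of its median and the gene's own value. The bound is on group means and carries no sampling error. G0s2 minus Pnpla2 was tested by exact two-sided permutation (python 3.11.15, scipy 1.17.1, numpy 2.4.6, pandas 2.3.3), and figures were drawn with matplotlib 3.10.9. Promoters came from RefSeq on GRCm38.p6. The 9 members, the 5 pathway lists and the markers were chosen with earlier results of these data known. Named genes were the members, up to 4 called genes with the largest change per list and comparison with control, and the 3 most correlated genes per member. Alternatives were other pseudocounts, scalings, filters, probe set choices, array weights, spike sets, the replicate number as a block and leaving out arrays.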

Additional observations from a re-analysis of the deposited data

How the results depend on the processing

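No result on the members or on G0s2 minus Pnpla2 changed direction past the threshold under any alternative run. The pathway lists were rerun only without control 5 and minor trauma 3, and the markers and correlations under no alternative. The count of members called in minor trauma was 4 with values as deposited, 5 with median centring, 1 with a filter on 10 arrays, 1 with array weights, 0 in a fit of the 2 groups alone, 1 in the spiked set, 0 in the set without spike, and 1 without control 5 and minor trauma 3. In shock it was 4 with array weights, 1 in the spiked set, 0 in the set without spike and 4 without those 2 arrays. At 1 h it was 2 in a fit of the 2 groups alone, 1 in the spiked set and 2 in the set without spike. Shock against minor trauma and 1 h against shock gave 0 within either set. With values as deposited the median of all genes against control was 0.203 (minor trauma), -0.031 (shock), -0.116 (1 h) and -0.266 (4.5 h). Leaving out 1 array in turn, the counts ran from 0 to 5 for minor trauma, from 1 to 4 for shock, from 2 to 4 for 1 h, from 4 to 5 for 4.5 h, 3 to 4 in shock against minor trauma, 0 to 1 in 1 h against shock and 4 to 4 in 4.5 h against 1 h, and 8 members differed among the groups each time. G0s2 minus Pnpla2 for 1 h against shock was -1.43 (exact permutation adjusted p = 0.1) with a pseudocount of 18. Without 1 array it ran from -1.89 to -1.41 for 1 h against shock, from -2.28 to -1.86 for shock, from -3.98 to -3.56 for 1 h and from -3.51 to -3.28 for 4.5 h against control, and adjusted p lay above the threshold where a shocked array was left out, since fewer arrays allow no smaller p. Without control 5 and minor trauma 3, an alternative chosen after seeing the data for the lists, the named pathway genes and G0s2 minus Pnpla2, the lipase list had 4 calls in minor trauma and 2 in shock, the droplet list 0 in minor trauma, 1 in shock and 2 at 1 h, and the regulators 6 in shock and 13 at 1 h. The calls of Gpat3, Acsl4, Mospd2 and Nr3c1 in minor trauma ended, though 2 of their lists kept a count of 1 through another gene. Deviations from the group means of arrays with the same replicate number correlated between -0.08 and 0.17. Pairs of different number were not compared, so whether the number marks a pairing cannot be told. With the replicate number as a block, 4 members were called in minor trauma and 4 in shock, and no other count moved by over 1.5 times.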
